A study of Mus musculus with 1 sample.

Results

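The DEAD-box and DEAH-box helicases are RNA helicases named after the amino acids of a conserved motif. Many of their mouse genes carry symbols that start with Ddx or Dhx, while others, such as Eif4a1, carry another symbol. The poly(A) tails of mRNAs with a Ddx or Dhx symbol were examined in wild-type mouse epiblast-like cells (EpiLCs). These had been differentiated for 24 h from embryonic stem cells (ESCs). The GENCODE vM21 annotation held 52 protein-coding genes with Ddx or Dhx followed by a digit, apart from Ddx6, which was kept among the other RNA helicases. Of these, 47 had at least 10 transcripts and form the set described here, among 6754 protein-coding nuclear genes with that many transcripts. They comprised 33 Ddx genes and 14 Dhx genes on 17 chromosomes. The other 5 genes were Dhx34 with 2 transcripts, Ddx23, Dhx58 and Ddx43 with 1 each, and Ddx60 with 0, and no tail length is given for them.

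The tails were measured by PAIso-seq, in which full-length cDNA including the tail is read on the PacBio platform in repeated passes around a circular molecule. The cells were of the ICR strain and had been grown on Matrigel in N2B27 medium with activin A, bFGF and serum replacement. They formed 1 group with 1 sample, whose table held 2 replicates marked by barcode, numbered here by barcode because the labels do not assign them. The study calls its replicates independent, but nothing states that they came from separate cultures, so their spread may be technical. Cells without Cnot8, a deadenylase subunit of the Ccr4-Not complex that the study set against the wild type, were not analysed here. With 1 group there are no conditions to compare, and an exact sign permutation test over 2 replicates cannot give a two-sided p below 0.5. No p-value is therefore given, and the comparisons below are described by replicate values, by intervals and by the same counts over all tested genes.

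A poly(A) tail is a stretch of adenosines added to the 3′ end of nearly all mRNAs, where it supports translation and is shortened by deadenylases before decay. DEAD-box and DEAH-box proteins use ATP to unwind RNA duplexes or to strip proteins from RNA, and they act at almost every step of an RNA's life. Most members have a narrow task, such as a step of spliceosome remodelling, of ribosomal RNA processing in the nucleolus, of mRNA export or of translation initiation.

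Tails of 6 helicase genes are shown first, exactly as read, because their length, their terminal base and their internal bases are the values described below. The tails run from the transcript body to the 3′ end, adenosines are in lower case and other bases in capitals, and T stands for U of the RNA. The first 3 are transcripts at the median length of Ddx10, Ddx3x and Ddx39b, and the other 3 hold a terminal T, an internal G and an internal C.
Ddx10, 65 nt: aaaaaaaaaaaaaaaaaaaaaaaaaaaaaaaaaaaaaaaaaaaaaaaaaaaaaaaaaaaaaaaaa
Ddx3x, 92 nt: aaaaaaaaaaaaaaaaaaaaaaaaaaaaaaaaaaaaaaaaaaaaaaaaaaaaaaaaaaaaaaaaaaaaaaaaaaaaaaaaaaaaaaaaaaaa
Ddx39b, 119 nt: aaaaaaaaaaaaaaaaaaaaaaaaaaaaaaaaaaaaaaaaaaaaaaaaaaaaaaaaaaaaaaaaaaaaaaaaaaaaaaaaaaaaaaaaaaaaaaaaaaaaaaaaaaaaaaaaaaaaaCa
Dhx16, 30 nt: aaaaaaaaaaaaaaaaaaaaaaaaaaaaaT
Ddx17, 41 nt: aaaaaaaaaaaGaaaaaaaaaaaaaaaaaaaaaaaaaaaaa
Ddx21, 53 nt: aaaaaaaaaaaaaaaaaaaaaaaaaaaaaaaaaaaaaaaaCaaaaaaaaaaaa

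The tail is added at the end of the 3′ UTR, usually downstream of a polyadenylation signal. The last 30 bases of the longest annotated protein-coding transcript are shown for 4 helicase genes that hold the hexamer AATAAA there. It is in capitals, and bases are on the transcribed strand (GRCm38). The same stretch held AATAAA in Dhx40, the variant ATTAAA in Ddx24 and neither in Ddx39b and Ddx54. A hexamer that starts before the stretch would be missed, and the stretch of Ddx39b stops short of the annotated end of its gene. The absence in these 2 genes is therefore not evidence that they lack a signal.
Dhx9, chr1:153455758-153455787, minus strand: aatagaaAATAAAgtattatactgaaaatt
Ddx3x, chrX:13294023-13294052, plus strand: aggtgaaAATAAAgttgtgctcttgcctga
Ddx5, chr11:106780355-106780384, minus strand: cttaactAATAAAtgtgatttttctcccca
Ddx10, chr9:53098635-53098664, minus strand: cataaaaaAATAAActtatttcttacaaaa
Searched on the transcribed strand in the last 40 bases, AATAAA was found in 28 of the 47 helicase genes (59.6%) and in 63.0% of 6751 tested genes with such an annotated end. ATTAAA was found in 12 helicase genes (25.5%) and in 17.7% of the tested genes. Either hexamer was present in 39 helicase genes (83.0%) and in 77.6% of the tested genes, so the ends of the helicase genes held these letters about as often as those of other genes. The reads were not tied to these ends, since the table gives no position.

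At least 7 passes were reached by 354259 reads in replicate 1 and 593361 in replicate 2. Protein-coding nuclear genes took 215119 and 397161 of these, of which the helicase genes took 1732 and 3663, or 0.805% and 0.922%. A count of 3 transcripts corresponds to 0.00139% and 0.000755% of the protein-coding nuclear transcripts. The cells matched their label by marker genes. All 5 pluripotency markers, among them Pou5f1 and Sox2, were detected with 899 transcripts in total, and all 6 EpiLC markers, among them Otx2, Fgf5 and Dnmt3b, with 1083. Of the markers of other cells, 2 of 6 fibroblast markers were detected with 4 transcripts in total (Col1a1, Col1a2, Col3a1 and Postn at 0), 1 of 5 primitive endoderm markers with 1 and 1 of 3 mesoderm markers with 5.

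The helicase genes ranged from 11 transcripts (Ddx25) to 526 (Ddx3x), with a median of 67. Fewer cells with an mRNA and less of it per cell cannot be told apart in such bulk libraries. After Ddx3x, a translation factor, the most transcripts were those of the nucleolar Ddx21 (511), of Ddx1 (328), which acts with the tRNA ligase, of the transcription cofactor Ddx5 (313) and of the spliceosome disassembly factor Dhx15 (309). In 17 genes each replicate gave 30 transcripts or more, and for these the values are given by replicate.

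The tail length of a gene, below called the gene tail, was the geometric mean over its transcripts. Its median over the helicase genes was 69.4 nt (quartiles 60.4 and 84.4 nt, range 33.5 to 103 nt), and over all tested genes 75.5 nt. In replicate 1, the median of 35 helicase genes was 75.5 nt beside 77.1 nt for all tested genes. In replicate 2, the median of 44 helicase genes was 71.5 nt beside 75.8 nt. The helicase median minus the median of all tested genes was thus -6.07 nt in both replicates together, and the differences of -1.64 nt and -4.31 nt in the single replicates (SD 1.89 nt, n = 2) had the same direction. The SD of the helicase median between replicates was 2.85 nt, larger than the difference in replicate 1.

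A gene tail below 75 nt, the boundary between short and long tails used by the study, was found for 28 of the 47 helicase genes (59.6%), beside 49% of all tested genes. The 95% interval of the gene tail, computed over transcripts on the log scale and covering counting error only, lay below the median of all tested genes for 12 helicase genes, or 25.5%, beside 15.6% of all tested genes. These were Ddx1, Ddx10, Ddx17, Ddx20, Ddx31, Ddx42, Ddx52, Ddx58, Dhx9, Dhx15, Dhx32 and Dhx40. The interval lay above that median for 7 helicase genes (14.9%), beside 19.5% of all tested genes. These were Ddx24, Ddx39, Ddx39b, Ddx54, Ddx55, Dhx29 and Dhx37. Intervals are narrower for genes with more transcripts, and the helicase genes had more of them than the tested genes (medians of 67 and 37). Each replicate gave 10 transcripts or more for 35 helicase genes, of which 15 lay below the median of the replicate in both replicates (42.9%), beside 33.8% of 4018 tested genes. Above it in both replicates lay 8 (22.9%), beside 33.8% of the tested genes. The set was thus spread on both sides of the median, with more genes on the short side by each of these counts.

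**Figure D1:**
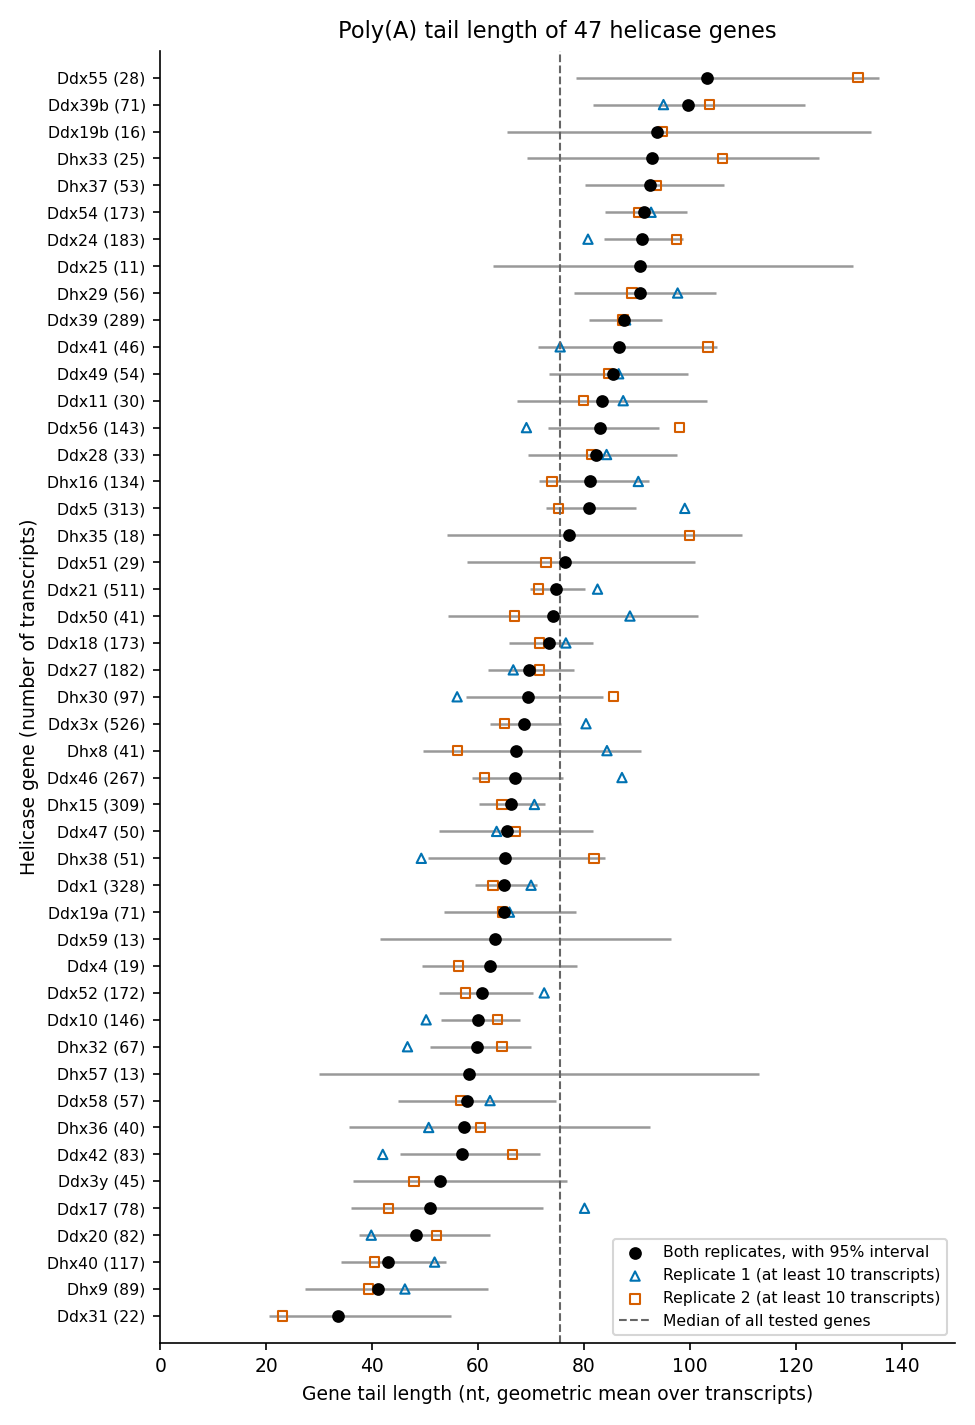
Gene tail length in nt (geometric mean over transcripts) of the 47 helicase genes, with the number of transcripts in parentheses; black points give both replicates with the 95% interval, and open symbols give each replicate with at least 10 transcripts. Gene tails run from 33.5 nt (Ddx31) to 103 nt (Ddx55) around the dashed median of all tested genes at 75.5 nt. The triangle and the square of Ddx5, Ddx17, Ddx46, Ddx56 and Dhx30 stand well apart, as do those of Ddx41, Ddx42, Dhx8 and Dhx38.

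The median over transcripts was longer than the geometric mean in 42 of the 47 genes. By that measure the helicase genes had a median of 86 nt beside 88 nt for all tested genes, and 14 helicase genes (29.8%) had a median below 75 nt, beside 24.8% of all tested genes. At the level of transcripts, 48.0% of helicase tails were over 90 nt in replicate 1 and 47.9% in replicate 2, beside 50.1% of all protein-coding nuclear tails in each. Tails of 6 to 30 nt made up 12.0% (95% Wilson interval 10.6 to 13.6%) and 10.2% (9.22 to 11.2%) of helicase tails, beside 9.35% and 8.71% of all. In both replicates the interval of the helicase share lay above the share of all transcripts.

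**Figure D2:**
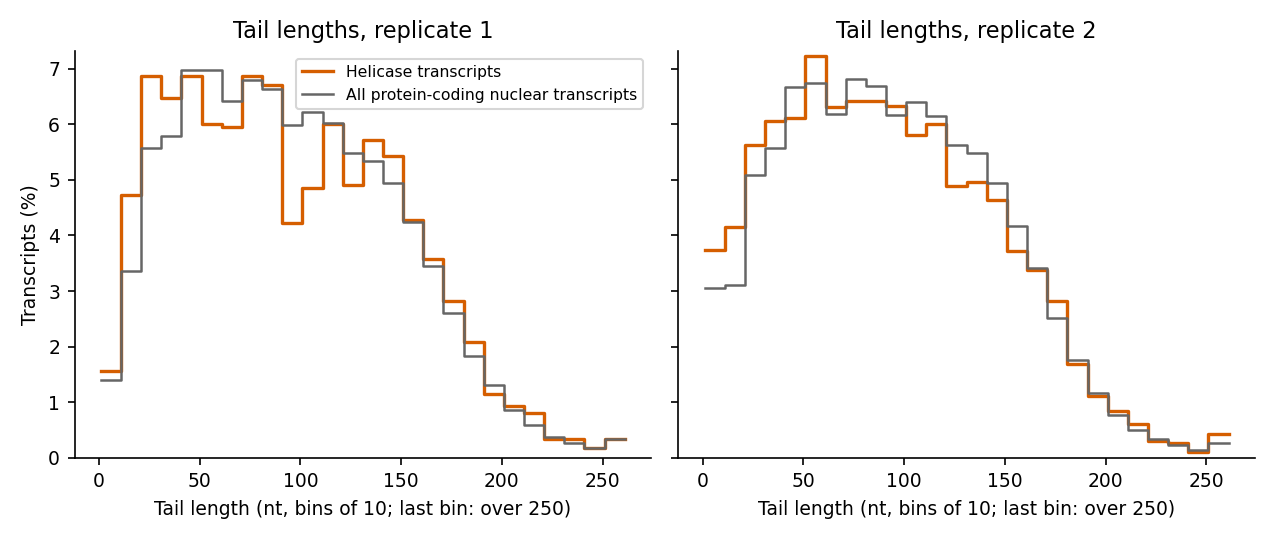
Share of transcripts (%) by tail length in nt, in bins of 10 nt with all longer tails in the last bin, for helicase transcripts (orange) and all protein-coding nuclear transcripts (grey) in each replicate. The lines run close together, with the helicase line above the other for tails of up to 40 nt in both replicates; transcripts over 90 nt made up 48.0% and 47.9% of helicase tails.

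Ribosome biogenesis was the largest group, with 15 of 15 listed genes tested. Their median gene tail was 74.8 nt, and 8 lay below 75 nt, with 3 intervals below the median of all tested genes and 4 above it. The group held the extremes of the whole set, Ddx31 at 33.5 nt (interval 20.5 to 54.8 nt, 22 transcripts) and Ddx55 at 103 nt (78.4 to 136 nt, 28 transcripts). Both act in the assembly of the large ribosomal subunit. Their order was turned around in replicate 1, where Ddx31 had 89.9 nt from 6 transcripts and Ddx55 49.6 nt from 7, against 23.1 nt from 16 and 131.7 nt from 21 in replicate 2. Neither gene can therefore be called short or long from these data.

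Ddx10, needed for processing of the small-subunit rRNA, had 50.2 nt (interval 37.7 to 66.8 nt) in replicate 1 and 63.7 nt (55.6 to 72.9 nt) in replicate 2. Ddx52, another small-subunit factor, had 72.5 nt (57.0 to 92.1 nt) and 57.6 nt (48.3 to 68.8 nt). These were the shortest gene tails among the 17 genes with values by replicate, at 60.03 and 60.8 nt pooled, and both genes lay below the median of all tested genes in each replicate. Neither value rested on tails of 5 nt or less: Ddx10 had none, and Ddx52 had 67.0 nt without its 4.

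Ddx54 and Ddx24, which act on the large subunit, stood at the other end. Ddx54 had 92.7 nt (81.5 to 105 nt) and 90.4 nt (80.8 to 101 nt) in the 2 replicates. Ddx24 had 80.7 nt (69.7 to 93.5 nt) and 97.5 nt (88.5 to 107 nt). Neither gene had any tail of 1 to 5 nt, among 173 and 183 transcripts. Ddx54 lay above the median of all tested genes with its interval clear in both replicates, whereas the interval of Ddx24 included it in replicate 1.

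The remaining nucleolar genes with many transcripts lay between these ends. Ddx21, which couples RNA polymerase I transcription to rRNA processing, had 82.5 nt (74.5 to 91.5 nt) and 71.3 nt (65.3 to 78.0 nt). Ddx18 had 76.6 and 71.6 nt, and Ddx27 had 66.6 and 71.6 nt, with the intervals of the replicates overlapping for both genes. Among the nucleolar genes with values by replicate, Ddx56 differed most between replicates. It had 69.1 nt (55.3 to 86.5 nt) in replicate 1 and 98.0 nt (86.5 to 111 nt) in replicate 2, with intervals that only just fail to overlap. Its pooled 83.0 nt lies within the interval of replicate 1 and below that of replicate 2. The other 5 genes, Ddx47, Ddx49, Ddx50, Ddx51 and Dhx37, had pooled gene tails between 65.5 and 92.4 nt.

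Splicing factors were tested for 9 of 10 listed genes, Ddx23 having 1 transcript. Their median gene tail was 67.1 nt, and 5 lay below 75 nt, with 2 intervals below the median of all tested genes (Ddx42 and Dhx15) and 1 above it (Ddx39b). Dhx15, which takes apart the spliceosome after splicing, had 70.6 nt (59.9 to 83.3 nt) and 64.5 nt (57.6 to 72.2 nt). Dhx16, needed for the first catalytic step, had 90.2 nt (77.1 to 106 nt) and 74.0 nt (60.8 to 89.97 nt). Ddx46, which acts with the U2 snRNP at the branch site, had 87.2 nt (75.9 to 100 nt) and 61.2 nt (52.1 to 71.96 nt), and the intervals of its replicates did not overlap. Of the less abundant factors, Ddx42 stood at 56.9 nt (45.2 to 71.7 nt), Dhx38 at 65.1 nt (50.5 to 84.0 nt), Dhx8 at 67.1 nt (49.7 to 90.7 nt), Dhx35 at 77.1 nt (54.1 to 110 nt) and Ddx41 at 86.6 nt (71.3 to 105 nt). Apart from Ddx42, these intervals included the median of all tested genes. Replicates 1 and 2 stood apart for Ddx42 (42.0 and 66.4 nt), Dhx38 (49.3 and 81.9 nt), Dhx8 (84.3 and 56.1 nt) and Ddx41 (75.5 and 103 nt). Dhx35 had 51.3 nt over 7 transcripts and 99.9 nt over 11.

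The mRNA export helicases had a median of 90.6 nt, the highest of the role lists with at least 4 genes. Of the 5 genes 1 lay below 75 nt and 2 had an interval above the median of all tested genes. Ddx39b, which loads the export machinery onto spliced mRNA and also counts among the splicing factors, had 95 nt (69.7 to 129 nt) and 103.7 nt (78.9 to 136 nt). Its paralog Ddx39 had 87.9 nt (76.4 to 101 nt) and 87.3 nt (79.4 to 96.1 nt), the closest agreement between replicates among the 17 genes. No tail of Ddx39b lay between 6 and 30 nt among 71 transcripts. At the nuclear pore, Ddx19a had 64.9 nt (53.6 to 78.5 nt) and Ddx19b 93.7 nt (65.5 to 134 nt, 16 transcripts), and Ddx25, known from the testis, had 90.6 nt (62.8 to 131 nt, 11 transcripts). The last 2 values rest on few transcripts, and that of Ddx25 is the median of the list. Ddx25 had 50.5 nt over 2 transcripts in replicate 1 and 103 nt over 9 in replicate 2. Among genes with at least 10 transcripts in the replicate, the list median was 87.9 nt over 3 genes in replicate 1. It was 91.1 nt over 4 genes in replicate 2.

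The translation group had a median of 68.6 nt over 5 genes, with 3 below 75 nt. This value depended on very short tails and on the replicate. Without tails of 1 to 5 nt the median was 89.3 nt, above the 80.5 nt of all tested genes, and the lowest of the 5 genes had 75.6 nt. The median was 80.4 nt over 3 genes in replicate 1 and 64.9 nt over 5 in replicate 2. Ddx3x, which helps ribosomes to start on structured mRNAs, had 80.4 nt (69.5 to 92.9 nt) and 64.9 nt (57.5 to 73.3 nt), with 137 and 389 transcripts. The medians over its transcripts, 93 and 92 nt, differed by 1 nt, and the gap between the geometric means closed to 90.01 and 88.98 nt when tails of 1 to 5 nt were left out. Ddx3y, the Y-linked paralog, had 52.8 nt (36.3 to 76.9 nt) pooled, from 90.3 nt over 7 transcripts in replicate 1 and 47.9 nt over 38 in replicate 2. Dhx36, which unwinds G-quadruplexes, had 57.4 nt (35.6 to 92.5 nt). Dhx29, which helps the small subunit to scan, had 90.5 nt (78.1 to 105 nt) and was the gene of this group with its interval above the median of all tested genes. Dhx33 had 92.8 nt (69.3 to 124 nt).

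The 5 cofactors of transcription and RNA processing had a median of 50.9 nt, and 4 of them had an interval below the median of all tested genes. Dhx9, also called RNA helicase A, stood at 41.1 nt (27.3 to 61.9 nt), Ddx20, a component of the SMN complex that assembles snRNPs, at 48.4 nt (37.5 to 62.3 nt), and Ddx17 at 50.9 nt (35.9 to 72.2 nt). Ddx17, whose value is the median of the list, had 80.1 nt over 21 transcripts in replicate 1, above the median of all tested genes, and 43.1 nt over 57 in replicate 2. Ddx1 had 70.0 nt (60.1 to 81.6 nt) and 62.8 nt (56.2 to 70.2 nt). Ddx5 was the exception, with 99.0 nt (84.0 to 117 nt) in replicate 1 and 75.1 nt (66.1 to 85.5 nt) in replicate 2. Without tails of 1 to 5 nt the median of the 5 genes was 83.4 nt, with Dhx9 at 104.5 nt and Ddx17 at 83.4 nt, while Ddx20 and Ddx1 stayed short at 60.5 and 68.997 nt.

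The 4 less characterised genes were all below 75 nt with both replicates pooled, beside 49% of all tested genes, and had a median of 59.0 nt. They were Dhx40 at 42.9 nt (34.2 to 53.9 nt), Dhx57 at 58.2 nt (30.0 to 113 nt), Dhx32 at 59.7 nt (50.9 to 70.0 nt) and Ddx59 at 63.2 nt (41.4 to 96.4 nt). Dhx57 and Ddx59 had 13 transcripts each, and neither lay below 75 nt in both replicates. Dhx57 had 38.6 nt over 6 transcripts in replicate 1 and 82.7 nt over 7 in replicate 2. Ddx59 had 75.7 nt over 7 and 51.2 nt over 6. In contrast to the cofactors, the median of the 4 genes without tails of 1 to 5 nt was the same 59.0 nt, although Dhx40 itself then had 56.2 nt. Ddx58, the cytoplasmic RNA sensor RIG-I, had 57.9 nt (44.8 to 74.8 nt). The mitochondrial ribosome factors Dhx30 and Ddx28 had 69.4 and 82.2 nt pooled, and Dhx30 differed strongly between replicates, with 56.04 nt (42.8 to 73.3 nt) and 85.6 nt (66.7 to 110 nt). Ddx11, a DNA helicase of sister chromatid cohesion, had 83.3 nt (67.3 to 103 nt), and the germ-line gene Ddx4 had 62.3 nt (49.3 to 78.8 nt) from 19 transcripts.

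**Figure D3:**
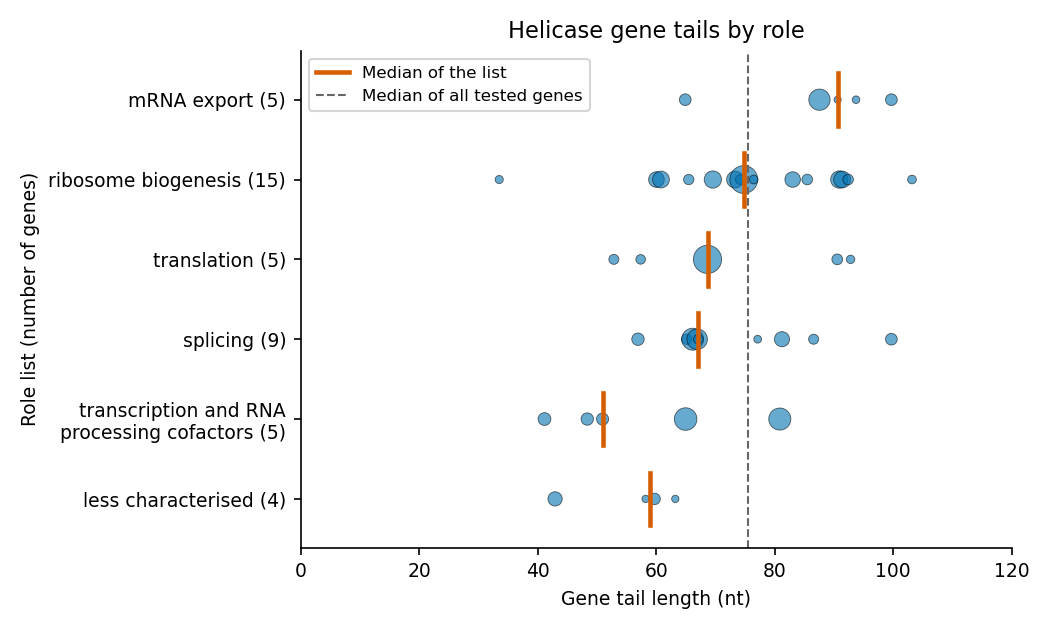
Gene tail length in nt of the helicase genes in the 6 largest role lists, with 1 point per gene whose area grows with its number of transcripts, an orange bar at the median of the list and a dashed line at the median of all tested genes (75.5 nt). The list medians run from 50.9 nt (cofactors of transcription and RNA processing) to 90.6 nt (mRNA export), and the 15 ribosome biogenesis genes cover the whole range; Ddx39b is in both the splicing and the export list.

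Tails of 1 to 5 nt were few but decided several of these values. They made up 1.15% of helicase transcripts in replicate 1 (20 of 1732, Wilson interval 0.749 to 1.78%) and 3.36% in replicate 2 (123 of 3663, 2.82 to 3.99%). The shares of all protein-coding nuclear transcripts were 0.988% and 2.55%, so that such tails were more frequent in replicate 2 in general, and the helicase share lay above that of all transcripts with its interval clear in replicate 2 but not in replicate 1. Of the 143 tails, 89 were a single A and 37 were AA. Such tails could not be traced to the ends of their alignments, since the table gives no read positions, and the values that rest on them, above all the gene tail of Dhx9, carry that doubt. No such tail was found in 21 of the 47 genes (44.7%), beside 55.6% of all tested genes. Whether a gene shows such a tail depends on its number of transcripts, with a median of 67 for the helicase genes and 37 for all tested genes.

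Ddx3x, Dhx9 and Ddx46 together held 64 of the 143 tails (44.8%). They were the 3 genes with the most tails of 1 to 5 nt, so leaving them out had to lower the pooled helicase share. Without these 3 genes the helicase shares were 0.798% in replicate 1 and 2.23% in replicate 2, each with an interval that included the share of all transcripts without these genes, 0.986% and 2.54%. Dhx9 had 4 such tails among 25 transcripts in replicate 1 and 14 among 64 in replicate 2, or 20.2% in all (interval 13.2 to 29.7%). Of these 18 tails, 17 were a single A. The other tails of Dhx9 were long: the median over all its transcripts was 104 nt, and with tails over 5 nt its gene tail was 104.5 nt (90.5 to 121 nt), which placed it second among the 47 genes, after Ddx39b at 113 nt. Dhx9 was thus among the shortest helicase genes with all tails and among the longest without the shortest ones.

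Ddx3x had 4 such tails in replicate 1 and 31 in replicate 2 (6.65% in all), of which 11 were a single A and 20 were AA. Ddx46 had 0 in replicate 1 and 11 in replicate 2 (4.12%), and all 11 were a single A. Ddx17 had 0 and 9 (11.5%), and Dhx40 0 and 8 (6.84%). The very short tails of Ddx46, Ddx17 and Dhx40 were thus found in 1 replicate, the deeper one. The lower Wilson bound of the share lay above 2.002%, the share of all protein-coding nuclear transcripts in both replicates together, for 8 of the 47 genes (17.0%), beside 13.7% of all tested genes. They were Ddx3x, Ddx3y, Ddx17, Ddx20, Ddx46, Dhx9, Dhx36 and Dhx40. This count too depends on the number of transcripts per gene.

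**Figure D4:**
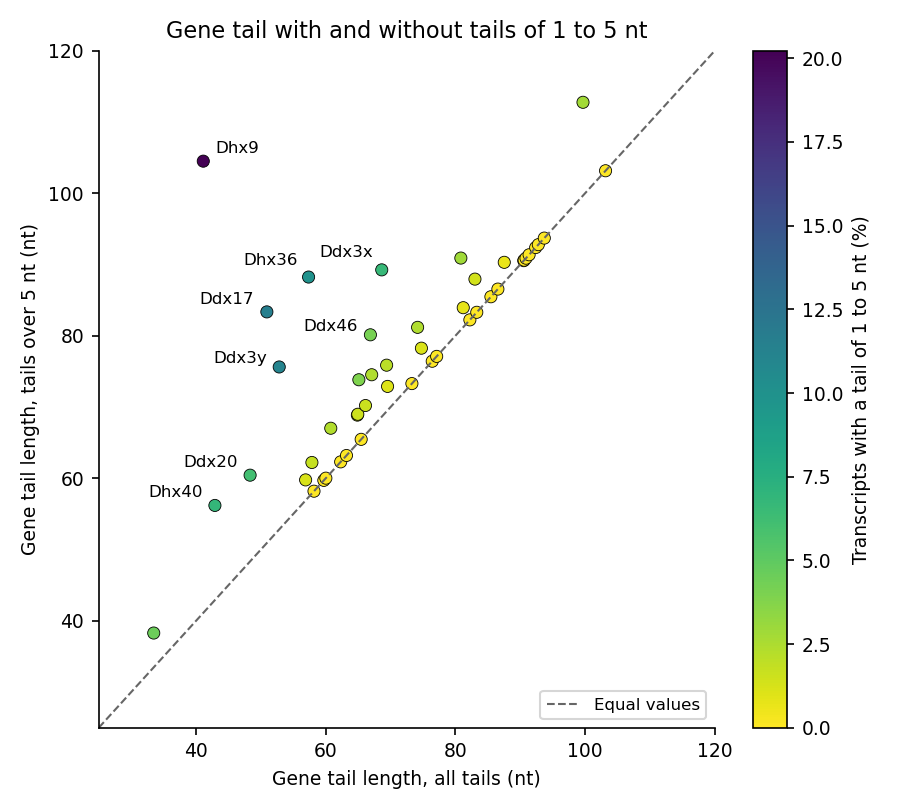
Gene tail in nt from all tails (horizontal) and from tails over 5 nt (vertical) of the 47 helicase genes, coloured by the share of transcripts with a tail of 1 to 5 nt, with a dashed line at equal values. Most genes lie on or close to the line, and Dhx9 rises from 41.1 to 104.5 nt. The 8 named genes are those whose lower Wilson bound of this share lay above the share of all protein-coding nuclear transcripts.

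When tails of 1 to 5 nt were left out, the interval lay below the median of all tested genes, then 80.5 nt, for 13 helicase genes (27.7%, beside 14.4% of all tested genes) and above it for 7 (14.9%, beside 17.3%). Ddx1, Ddx10, Ddx20, Ddx31, Ddx42, Ddx52, Ddx58, Dhx15, Dhx32 and Dhx40 lay below by both definitions. Ddx4, Ddx19a and Ddx27 joined them, while Ddx17 and Dhx9 left. Ddx24, Ddx39, Ddx39b and Ddx54 lay above by both, while Ddx3x, Ddx5 and Dhx9 took the place of Ddx55, Dhx29 and Dhx37. Dhx40 then stood at percentile 6.48 of the tested genes and Dhx9 at percentile 92.3.

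**Figure D5:**
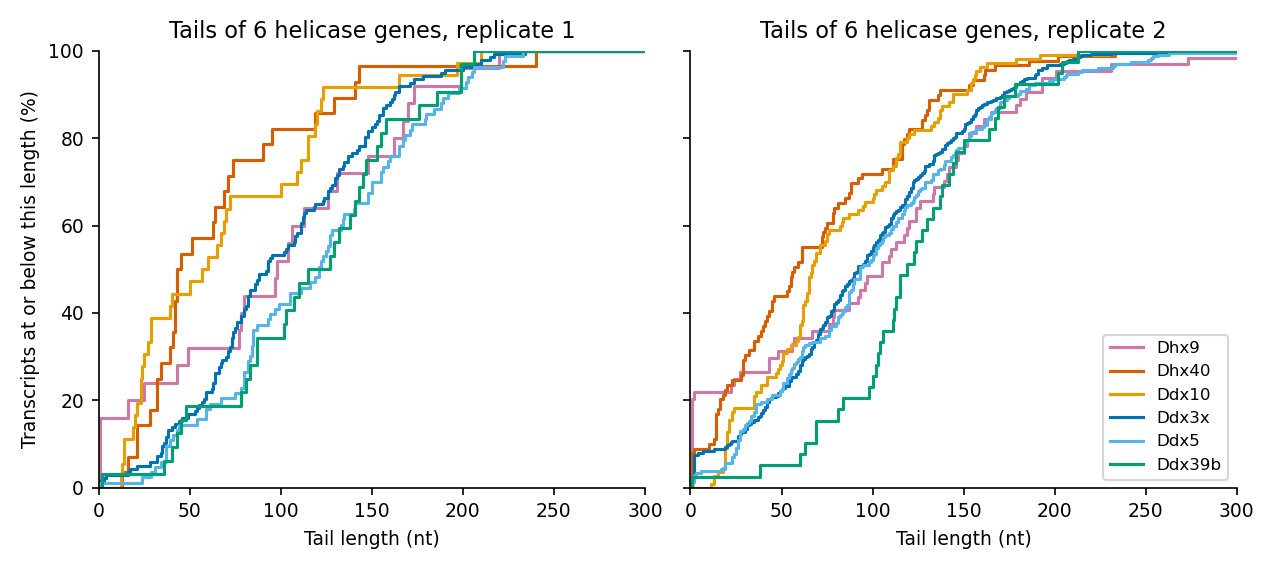
Cumulative share of transcripts (%) against tail length in nt for 6 helicase genes in each replicate, drawn up to 300 nt. The line of Dhx9 jumps at a tail of 1 nt (17 of its 89 tails were a single A) and then follows the genes with long tails, while Dhx40 and Ddx10 lie to the left in both replicates and Ddx39b lies to the right, beside Ddx5 in replicate 1 and alone in replicate 2, up to about the middle of the distribution.

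Pairs of close relatives were compared within each replicate, 9 pairs in all, by difference and by the intervals of the pooled values, which lay apart for 2 pairs. Ddx27 had 69.5 nt and Ddx54 91.4 nt, and Ddx27 minus Ddx54 was -26.02 nt and -18.8 nt in the replicates (SD 5.13 nt, n = 2), with intervals that did not overlap. Both are nucleolar factors of the large subunit, and the difference was -18.5 nt with tails over 5 nt. Ddx5 exceeded Ddx17, its closest relative, by 18.9 and 32.0 nt (SD 9.26 nt, n = 2), again with intervals apart, but by 7.55 nt with tails over 5 nt.

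For the other 7 pairs the intervals overlapped. Ddx19a minus Ddx19b was -23.4 and -30.2 nt, with 3 transcripts of Ddx19b in replicate 1. Ddx39 minus Ddx39b was -7.14 and -16.4 nt, and -22.5 nt pooled with tails over 5 nt. Dhx8 minus Dhx16 was -5.92 and -17.9 nt. The first gene of these 3 pairs thus had the shorter gene tail in each replicate. Ddx21 and its neighbour on chromosome 10, Ddx50, had 74.8 and 74.2 nt pooled. Ddx3x minus Ddx3y changed sign between replicates (-9.97 and 17.1 nt), as did Ddx21 minus Ddx50 (-6.12 and 4.43 nt) and Dhx15 minus Dhx32 (24.0 and -0.03 nt), so no order can be given for these. Dhx29 minus Dhx57 was 59.0 and 6.40 nt, with 6 and 7 transcripts of Dhx57. Ddx3x and Ddx3y are similar in sequence, and a read placed on the wrong copy would blur their difference, which makes both values uncertain.

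Bases other than A occurred in 14.7% of helicase tails in replicate 1 (254 of 1732, interval 13.1 to 16.4%) and in 10.4% in replicate 2 (380 of 3663, 9.43 to 11.4%). The shares of all protein-coding nuclear tails were 12.4% and 9.77%. The helicase share lay above with its interval clear in replicate 1 only, and the replicates differed more from each other than the helicase genes did from the rest. T was found in 9.18% and 5.87% of helicase tails, C in 4.04% and 3.44%, and G in 2.60% and 2.43%. For tails with a base other than A, the Wilson interval of the share of a gene lay clear of that of all protein-coding nuclear transcripts, in either direction, for 5 of the 47 genes (10.6%), beside 9.85% of all tested genes. They were Ddx10 at 15.8%, Ddx21 at 13.5%, Ddx54 at 16.2%, Dhx15 at 16.2% and Dhx40 at 17.1%, beside 10.7% of all transcripts, and all 5 lay above it. A share of 10.6% is close to the 9.85% of all tested genes.

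A terminal T, as in the Dhx16 tail shown above, is what terminal uridylation leaves, and uridylation of short tails is known to precede decay. Among helicase tails of 6 to 30 nt, the last base was T in 25.96% in replicate 1 (54 of 208, interval 20.5 to 32.3%) and in 18.3% in replicate 2 (68 of 372, 14.7 to 22.5%). The shares of all protein-coding nuclear tails of that length were 18.8% and 13.9%. The helicase share stood above in both replicates, with its interval clear of the share of all tails in each. Among tails of 61 to 90 nt, a terminal T was found in 2.96% and 1.43% of helicase tails, beside 2.70% and 1.78% of all, with intervals that included the share of all tails.

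Within the short class, the helicase share was 40.6% and 22.5% for tails of 6 to 15 nt, with intervals that included the 33.2% and 21.6% of all tails. For tails of 16 to 30 nt it was 23.3% (17.7 to 30.1%) and 17.3% (13.4 to 22.0%), beside 16.1% and 12.2% of all. Short tails ending in T came from 29 of the 44 helicase genes that had any tail of 6 to 30 nt. Dhx15 gave the most, 14 of 43 (32.6%), followed by Ddx10 with 9 of 34 (26.5%) and Ddx21 with 9 of 63 (14.3%), whereas Ddx3x gave 2 of 25 (8%). Without Dhx15 the shares were 24.5% (18.9 to 31.02%) and 17.7% (14.0 to 22.1%), and the lower bounds stood only just above the shares of all tails without Dhx15 (18.8% and 13.9%). The shares of all tails hold those of the helicase genes, and transcripts of 1 gene are not independent samples of the cells.

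Tail length was last set against gene features, across genes and as a description, since genes are not replicates. Across all 6754 tested genes, the gene tail fell with the length of the longest annotated transcript (Spearman's rank correlation -0.36). Across the 47 helicase genes the rank correlation was 0.05. Their transcripts had a median length of 4006 nt (1956 to 6934 nt), longer than the 3383.5 nt of all tested genes. The median gene tail was 69.5 nt over the 23 helicase genes with the shorter transcripts and 69.03 nt over the 24 with the longer ones. The rank correlation of gene tail with number of transcripts was -0.06 for the helicase genes and 0.04 for all tested genes. Between the replicates, the rank correlation of gene tails was 0.49 over 35 helicase genes and 0.50 over 4018 tested genes with at least 10 transcripts in each, and 0.35 over 17 and 0.67 over 1612 genes with at least 30. The order of the helicase genes was therefore shared only in part between replicates, and neighbours in the plot of gene tails are not separated.

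RNA helicase genes outside the rule, some of them DEAD-box genes too, gave a scale for these values. Of 21 other RNA helicase genes listed, 16 had at least 10 transcripts, with a median gene tail of 77.4 nt and a range from 10.9 nt (Helz) to 115 nt (Ddx6, interval 87.1 to 151.1 nt), wider than that of the 47 genes. Among them, 5 had an interval below the median of all tested genes and 4 above it. The translation factor Eif4a1, itself a DEAD-box protein with another symbol, had 91.4 nt (87.6 to 95.3 nt, 815 transcripts).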

How the data were processed

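PAIso-seq libraries of wild-type 24h-EpiLCs were read on the PacBio platform. The authors made circular consensus reads, split them by barcode, mapped them with minimap2 2.17 (build mm10), took the soft-clipped 3′ bases as the tail and assigned genes with featureCounts 2.0.1, by the methods and the submitters' processing notes. Reads without a tail were left out by them. The methods also describe the removal of sequences with fewer than 4 A in the first 8 bases, yet 137 of the 143 helicase tails of 1 to 5 nt in the table had fewer, and none of the longer helicase tails did. No such filter was added. The deposited table holds, for each read, the number of passes and the count of each base in its tail, with no normalization. The tail was the sum of A and non-A bases, in reads with at least 7 passes. Gene identifiers were matched to GENCODE vM21 (GRCm38). Gene tails were geometric means over at least 10 transcripts, with 95% intervals of the mean log length. Shares have 95% Wilson intervals. Reads carry no molecular identifiers, so intervals cover counting error only.

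The members and all lists were chosen with earlier results of these data known. Any helicase gene could be named within its role list. Values by replicate were given for genes that had 30 or more transcripts in each, with the 3 longest and the 3 shortest of these named. They were also given for some genes with fewer transcripts whose replicates differed, but not for all such genes. Both genes of each pair were named, with their differences by replicate. Alternatives changed the pass filter, the shortest tail, the length measure, the summary per gene, the minimum number of transcripts, the genes compared with and the replicates used. The scripts were tested on simulated data. Helicase genes with a same-strand overlap with another annotated gene numbered 10, mostly with microRNA or predicted genes, and reads of overlapping genes may be split. Strandedness of the counting was not given in the sources used here. The software was matplotlib 3.10.9, scipy 1.17.1, numpy 2.4.6, Python 3.11.15 and pandas 2.3.3.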

Additional observations from a re-analysis of the deposited data

Results flagged for a closer look

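Reads with fewer than 7 passes were used only in the alternative without a filter on passes, given in the next section. The helicase genes had 504 of them (154 in replicate 1 and 350 in replicate 2), above the 3 reads that a count of 0 allows. Their median tail was 85 nt, 2.98% of them had a tail of 1 to 5 nt, and 15.1% held a base other than A. Such reads came from 44 of the 47 genes.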

How the results depend on the processing

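The helicase median was below the median of the genes compared under every alternative tried, while its size depended on how very short tails entered. The median gene tail of 69.4 nt became 78.3 nt with tails of at least 6 nt, 81.5 nt with tails of at least 15 nt, 92.2 nt with arithmetic means and 86 nt with medians over transcripts. The difference from all tested genes, -6.07 nt, shrank to -2.25, -1.15, -1.12 and -2 nt under these 4 settings in that order, and to -3.89 nt against genes within the length quartiles of the helicase genes. Of the genes within those quartiles 53.2% lay below 75 nt, beside 59.6% of the helicase genes. The number of genes below 75 nt, 28 of 47, became 15 with tails of at least 15 nt, 5 with arithmetic means and 14 with medians, where longer tails or a higher summary lift all genes (28.6%, 12.5% and 24.8% of the genes compared). With at least 30 transcripts in each replicate, chosen after seeing the data, the median was 73.3 nt, beside 77.8 nt for the 1612 genes compared. At this setting 10 of 17 helicase genes were below 75 nt, beside 40.1% of the genes compared. Leaving out each replicate in turn gave medians of 71.5 to 75.5 nt and differences of -4.31 to -1.64 nt. Without replicate 1, 26 of 44 helicase genes (59.1%) lay below 75 nt, beside 48.6% of the genes compared. Without replicate 2, 17 of 35 did (48.6%), beside 44.6% of the genes compared. The pass filter, A bases alone and at least 20 transcripts moved the median, the difference and the count by less than the spread between replicates or 1.5 times. The share of tails of 1 to 5 nt, 2.65%, ran from 1.205 to 3.38% and the share of tails with other bases, 11.8%, from 10.4 to 14.5% when each replicate was left out, so the first follows replicate 2; the other 3 alternatives moved neither by as much. Among the 16 genes with at least 100 transcripts, the gene tail moved by more than the SD of the replicates in 3 with tails of at least 6 nt, in 15 with arithmetic means and in 7 without replicate 2.

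No paired analysis was possible because the wild-type cells formed 1 group. Depth limits single genes most: the median number of transcripts per helicase gene was 67. The ratio of the upper to the lower bound of the interval had a median of 1.49 over the helicase genes. Replicate 2 held 3663 of the 5395 helicase transcripts, so pooled values follow it. The cause of the excess of very short tails in replicate 2 was not tested.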
